A study of Homo sapiens with 12 samples.

Results

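Radiation added to QTP was examined as the difference between 2 groups of MSTO-211H cells, an established human mesothelioma line, that had both received 10 µM QTP. QTP is the only name the labels give the compound, and the series title speaks of dopamine receptor inhibition joined to radiotherapy. The Combo group had QTP and then 4 Gy on the following day, and the Rx group had QTP and a sham exposure. RNA was taken 48 h later. Each group had 3 libraries, so 6 of the 12 libraries of the series enter the comparison directly. The same radiation contrast in cells that had vehicle in place of QTP, IR (4 Gy) against Con (sham), has 6 libraries of its own and shares none with it. All cells were 1 line grown in suspension in RPMI with SM1, EGF, bFGF and heparin, and the submitters call them mesothelioma-initiating. The titles say only Rx and Combo, and the treatments were read from the 4 arms of the design text. The genes described are protein-coding and average 1 FPKM or more (reads scaled to the length of the gene and to the size of the library) over the 12 libraries. They were 10751 of 19951 protein-coding genes, of 13038 genes of any kind above that mean and of 58735 genes in the table. IQCH, at a mean of 1.00016 FPKM, was the nearest gene inside the limit, and L3MBTL4, at 0.998041, the nearest outside it.

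Reads recovered from the deposited values came to 14925895 to 18542055 in the Rx libraries and 17441486 to 18630958 in the Combo libraries, with Rx 3 the shallowest. At 1 FPKM, each kb of a gene held 14.9 to 19.1 reads in these 6 libraries. Genes encoded by mitochondrial DNA took 8.06 to 9.78% of reads. On the first principal component of all 12 libraries, which held 26.5% of the variance, the Rx libraries lay at -1.29, 9.55 and 1.45. The Combo libraries lay at -11.2, -7.64 and -21.5, so these 2 groups did not overlap and Combo 3 was the lowest. The vehicle libraries spanned both groups, at -8.23, 7.86 and 5.68 in Con and at -12.5, 9.04 and 28.7 in IR. Con 1 and IR 1 thus lay within the Combo range. Replicates differed from each other by more than sampling noise, with a chi-square of 7.09 to 14.8 per degree of freedom between their reads. The labels do not say whether replicates are separate cultures, and the spread behind each p-value may therefore be technical. Of 16 mesothelial markers 7 passed the filter, among them the simple keratins KRT8 and KRT18, mesothelin and calretinin, while PDPN had 0 reads in all 12 libraries and KRT19 at most 4 reads in the 6. Of 18 markers of blood, vessel, fibroblast and liver cells, 15 were under 0.1 FPKM on average, and CD3E, AIF1 and LYZ were listed at 0. The other 3 were LUM, PDGFRB and ACTA2. The summed level of these 18 markers was 8.17 to 10.9 FPKM in Rx and 9.99 to 12.2 FPKM in Combo.

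Ionising radiation breaks DNA. Damaged cells stabilise the transcription factor p53, whose targets include the cell cycle inhibitor CDKN1A and the p53 antagonist MDM2. Through CDKN1A, cells with p53 hold back the cyclin-dependent kinases, and repressor complexes then keep genes of DNA replication and of mitosis off. Replication genes are known for E2F sites in their promoters, and mitotic genes for a CHR element that lies close to the start site, often with CCAAT boxes upstream of it. Part of the response comes within hours of exposure and part lasts for days.

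No protein-coding gene passed the test of Combo against Rx. With limma on log2(FPKM + 1), the lowest adjusted p was 0.545 and 0 of 10751 genes (0%) were past the threshold of 0.05. At an unadjusted p under 0.05, 234 genes (2.18%) had a higher and 767 (7.13%) a lower mean in Combo than in Rx. The 3 Combo libraries lay above the 3 Rx libraries in 860 genes (8%) and below them in 1533 (14.3%). The mean was higher in 4676 genes (43.5%) and lower in 6075 (56.5%), and the median difference was -0.02. Limma voom on the recovered reads also gave 0 adjusted calls, with 550 genes higher and 570 lower at an unadjusted p under 0.05. The share of higher genes among those at an unadjusted p under 0.05 was 23.4% in FPKM, 50.9% after rescaling to TPM, 34.1% with the median of ratios, 34.2% after quantile normalization, 33% after a correction for gene length and 49.1% with voom. A fit of the 6 libraries alone came nearest to a call, at an adjusted p of 0.0524 in limma. In bulk samples fewer cells of a type and less RNA per cell cannot be told apart. Every difference given below is a difference in mean log2(FPKM + 1), Combo minus Rx unless another contrast is named. Intervals are 95% intervals from limma, and no gene named had an adjusted p under 0.545.

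Of 33 gene lists with at least 5 measured members, those of p53, of mitosis and of DNA replication are given first. Of 39 measured p53 targets, 31 had a higher mean in Combo and 8 a lower one, and 7 were higher at an unadjusted p under 0.05, with none lower. Of 71 genes on 3 mitotic lists, 70 had a lower mean and 45 (63.4%) were lower at an unadjusted p under 0.05. Of 53 genes on 2 replication lists, 51 had a lower mean and 23 (43.4%) were lower by that mark. Over all protein-coding genes 7.13% were lower and 2.18% higher by it. The median differences were 0.10 for the p53 list, -0.38 for the mitotic genes and -0.24 for the replication genes. The lists' members are not independent of each other, and no list was tested as a whole.

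**Figure D1:**
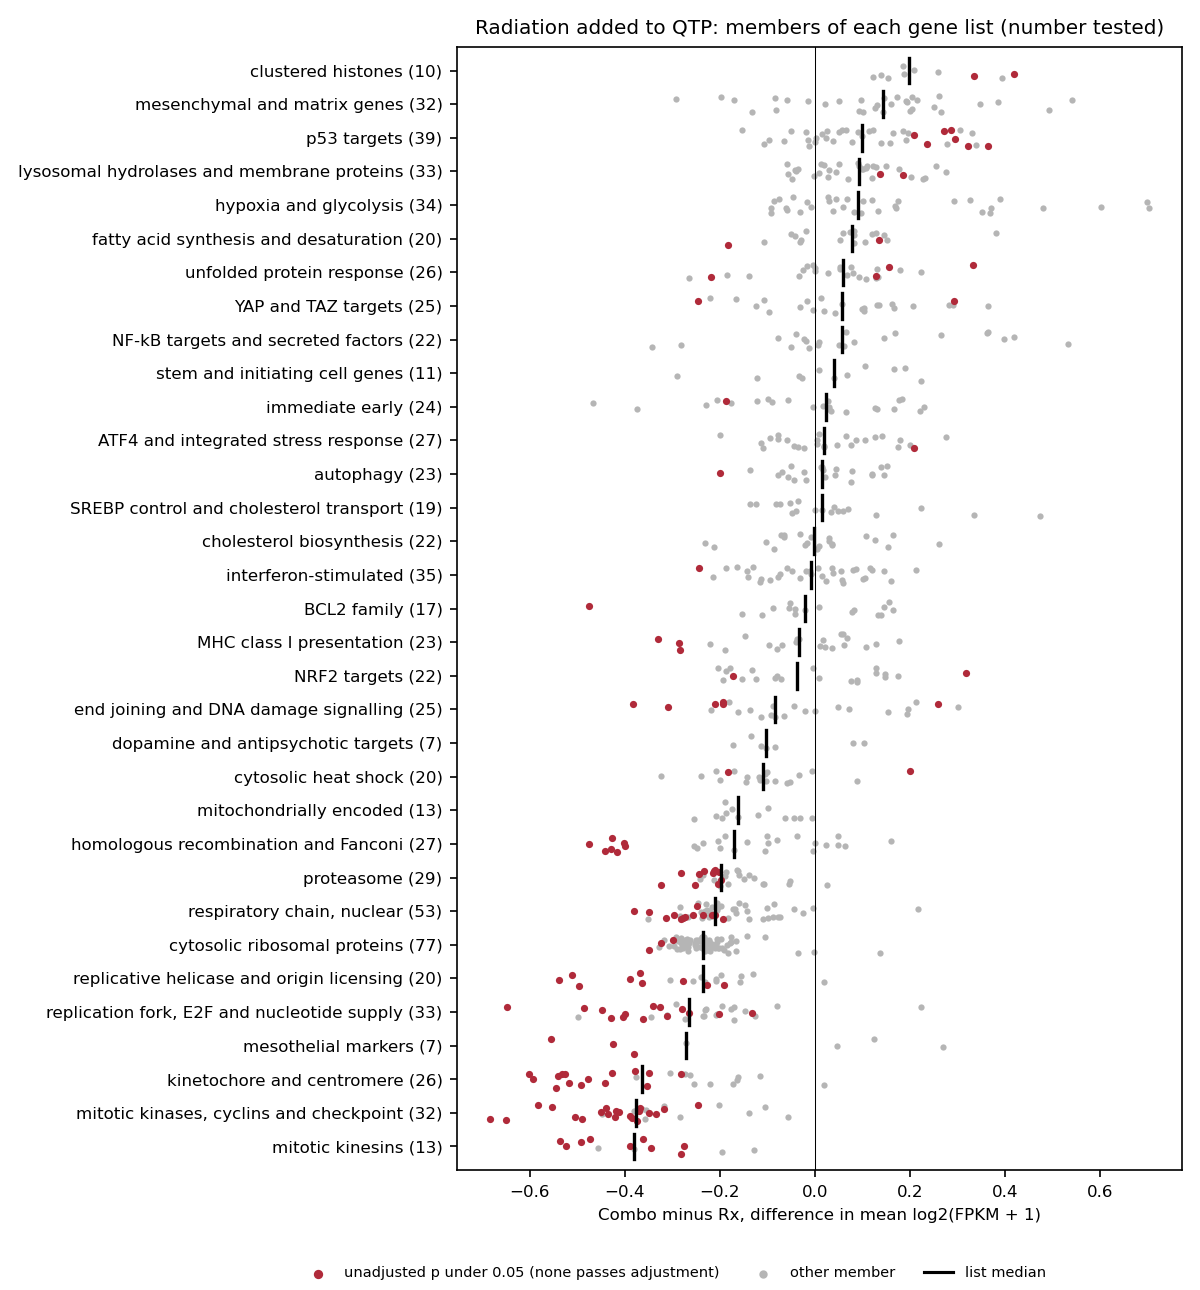
Each point is 1 protein-coding gene of a list, placed by its difference in mean log2(FPKM + 1), Combo minus Rx (n = 3 libraries each), with red for an unadjusted p under 0.05 and a black bar at the list median. The 3 mitotic lists lie farthest to the left, with medians of -0.38, -0.38 and -0.36, and the clustered histones farthest to the right, with a median of 0.20.

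Among the p53 targets, CDKN1A (chromosome 6), the inhibitor of cyclin-dependent kinases, was at 157, 181 and 165 FPKM in the Rx libraries and at 195, 242 and 194 in the Combo libraries. All 3 Combo libraries lay above all 3 Rx libraries. The difference was 0.32 (SE 0.11, 95% interval 0.07 to 0.57), a ratio of 1.25 on the FPKM + 1 scale. TP53INP1, a stress protein that binds p53 and takes part in autophagy, was at 4.91, 4.06 and 5.18 FPKM in Rx and at 5.89, 6.95 and 6.19 in Combo, a difference of 0.36 (SE 0.09, interval 0.17 to 0.56). PLK3, a stress-responsive polo-like kinase, was at 11.9, 12.4 and 12.1 FPKM in Rx and at 15.3, 15.2 and 14.5 in Combo, a difference of 0.29 (interval 0.09 to 0.48). Both genes also had groups that did not overlap. MDM2, the ubiquitin ligase that degrades p53, was at 35.3, 22.1 and 32.5 FPKM in Rx and at 39.1, 35.3 and 37.2 in Combo. Its difference was 0.33 (SE 0.15, 95% interval -0.00 to 0.66), with Combo 2 level with Rx 1. GDF15, a secreted stress cytokine, was at 105, 170 and 118 FPKM in Rx and at 114, 180 and 143 in Combo, so that the groups overlapped (0.16, SE 0.20, interval -0.29 to 0.61).

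Other p53 targets with an unadjusted p under 0.05 included PTCHD4, with a difference of 0.29, ZMAT3, an RNA-binding splicing regulator, with 0.27, ASCC3, a helicase of alkylation repair, with 0.24, and SESN2, an inhibitor of mTORC1 signalling, with 0.21. The death receptor TNFRSF10B was at 53.1, 53.6 and 49.2 FPKM in Rx and at 56.9, 56.6 and 56.4 in Combo, a small difference of 0.12 between groups that did not overlap. The pro-apoptotic gene BAX had a lower mean (-0.15), as did GADD45A (-0.10), a growth arrest gene, and the ferredoxin reductase FDXR (-0.06). The death receptor FAS and the cyclin CCNG1 each differed by -0.01. The list's median kept its sign in all 26 settings, from 0.05 to 0.19. Here and below, the 26 settings include some that cannot move a Combo minus Rx median, as listed with the processing. Averaged over the list, log2(FPKM + 1) was 4.10, 3.99 and 4.09 in the Rx libraries and 4.19, 4.26 and 4.08 in the Combo libraries, so Combo 3 lay within the Rx range. Without Combo 3 the median was 0.14 and 8 targets were higher at an unadjusted p under 0.05, against 0.856% of all protein-coding genes. Without Combo 2 the median was 0.05 with 3 such targets, and without Rx 2 it was 0.06 with 5.

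The mitotic genes had lower levels in Combo across kinases, motors and kinetochore alike. Of 32 mitotic kinases, cyclins and checkpoint genes all 32 had a lower mean and 21 had an unadjusted p under 0.05. CKS1B, a small subunit of the cyclin-dependent kinases, was at 13.9, 12.3 and 10.2 FPKM in Rx and at 8.88, 8.53 and 7.27 in Combo. Its difference was -0.50 (SE 0.12, 95% interval -0.77 to -0.24), and the groups did not overlap. FOXM1, the transcription factor of the G2 and M phase programme, was at 6.71, 6.13 and 5 FPKM in Rx and at 4.11, 4.16 and 3.52 in Combo (-0.49, interval -0.80 to -0.18), again without overlap. BIRC5, which encodes survivin of the chromosomal passenger complex, was at 11.6, 9.74 and 6.7 FPKM in Rx and at 6.95, 5.17 and 4.13 in Combo (-0.68, SE 0.20, interval -1.13 to -0.24). Rx 3 lay just under Combo 1 for this gene. Cyclin B1, CCNB1, was at 23.8, 17.9 and 13.5 FPKM in Rx and at 15.5, 13.8 and 10.5 in Combo (-0.42, interval -0.84 to -0.00), and MKI67, the source of the Ki-67 proliferation antigen, at 10.7, 9.11 and 6.62 against 7.65, 6.72 and 5.11 (-0.38, SE 0.21, interval -0.84 to 0.08). In both, Rx 3 lay within the Combo range. Other large differences were those of PTTG1, which encodes securin (-0.65), CDC20, the activator of the anaphase-promoting complex (-0.58), and CDK1, the mitotic kinase itself (-0.45). The smallest were those of the checkpoint gene BUB3 (-0.06) and of WEE1, the kinase that inhibits CDK1 (-0.10).

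All 13 mitotic kinesins had a lower mean and 9 had an unadjusted p under 0.05. KIF11, the motor that pushes the spindle poles apart, was at 3.71, 3.52 and 2.85 FPKM in Rx and at 2.45, 2.23 and 1.75 in Combo (-0.47, SE 0.14, interval -0.78 to -0.17). KIF4A, a chromosome arm motor, was at 4.27, 3.54 and 2.39 FPKM in Rx and at 2.04, 2.14 and 1.86 in Combo (-0.52, SE 0.17, interval -0.89 to -0.15). Neither motor had overlapping groups. KIF20A, a motor of cytokinesis, differed by -0.54 with overlap, and KIF18A, which dampens chromosome movement, by -0.13.

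Among 26 kinetochore and centromere genes, 25 had a lower mean and 15 had an unadjusted p under 0.05. SPC24, a subunit of the NDC80 complex that holds microtubules, was at 2.96, 2.46 and 1.86 FPKM in Rx and at 1.26, 1.2 and 1.25 in Combo, from 63 to 156 reads. Its difference was -0.60 (SE 0.14, 95% interval -0.91 to -0.29), and every Rx library lay above every Combo library. NUF2, of the same complex, was at 3.7, 2.73 and 2.01 FPKM in Rx and at 1.51, 1.48 and 1.76 in Combo (-0.54, interval -0.86 to -0.22), and NDC80 itself differed by -0.54. CENPA, the histone variant that marks centromeres, was at 3.37, 3.35 and 2.06 FPKM in Rx and at 1.46, 1.77 and 1.48 in Combo (-0.59, SE 0.18). PMF1, a subunit of the MIS12 complex, differed by -0.53 (interval -0.83 to -0.23). CENPI, the gene with a higher mean, differed by 0.02.

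The promoters of 3 mitotic genes with non-overlapping groups are printed because each carries the letters of a CHR element and of a CCAAT box just before its start. The windows are the 120 bases before the start given by RefSeq (GRCh38.p14), read 5′ to 3′ on the gene's strand. They are chr1:154974561-154974680 (plus strand) for CKS1B, chr10:92593010-92593129 (plus) for KIF11 and chrX:70289984-70290103 (plus) for KIF4A. Capitals mark the CHR letters, TTTGAA or TTCAAA, and the CCAAT letters, CCAAT or ATTGG.
CKS1B: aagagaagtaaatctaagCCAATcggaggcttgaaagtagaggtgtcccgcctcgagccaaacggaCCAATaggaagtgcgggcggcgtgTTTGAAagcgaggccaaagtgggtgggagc
KIF11: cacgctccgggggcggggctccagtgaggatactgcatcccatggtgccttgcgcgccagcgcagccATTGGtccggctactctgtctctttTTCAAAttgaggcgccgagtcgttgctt
KIF4A: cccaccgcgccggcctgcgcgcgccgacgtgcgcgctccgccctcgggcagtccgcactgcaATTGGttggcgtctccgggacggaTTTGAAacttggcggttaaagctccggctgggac
The CHR letters begin at -30, -28 and -34 relative to the start in CKS1B, KIF11 and KIF4A. The nearest CCAAT letters begin at -54, -53 and -58, and CKS1B has a further match at -102. In the 250 bases before the start, on either strand, the CHR letters were found in 24 of 59 mitotic genes with a RefSeq promoter entry (40.7%), against 7.95% of 8631 protein-coding genes with an entry. The CCAAT letters were found in 43 of these 59 (72.9%), against 35.0%. Matches of different motifs may share bases and were counted separately. A match is a description of the letters in the window.

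The size of the mitotic difference moved with single libraries of both groups. Averaged over the 32 mitotic kinases, cyclins and checkpoint genes, log2(FPKM + 1) was 3.39, 3.26 and 2.86 in the Rx libraries and 2.94, 2.79 and 2.63 in the Combo libraries, so Rx 3 lay within the Combo range. Rx 3 was the lowest Rx library in 63 of the 71 mitotic genes, and Combo 3 the lowest Combo library in 57. Without Rx 3 the medians of the 3 lists were -0.55 for the kinases, -0.48 for the kinesins and -0.49 for the kinetochore genes. Without Combo 3 they were -0.30, -0.31 and -0.27, and 8, 3 and 7 genes were lower at an unadjusted p under 0.05, against 2.29% of all protein-coding genes. Without Rx 1 they were -0.26, -0.31 and -0.27, with 7, 3 and 6 such genes, and without Combo 1 -0.48, -0.47 and -0.48. Without Rx 2 or Combo 2 the medians were -0.32 to -0.37, and the 21 lower kinase genes became 8 and 11. Each of the 3 medians was below 0 in all 26 settings, though some of these settings could not move them.

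**Figure D2:**
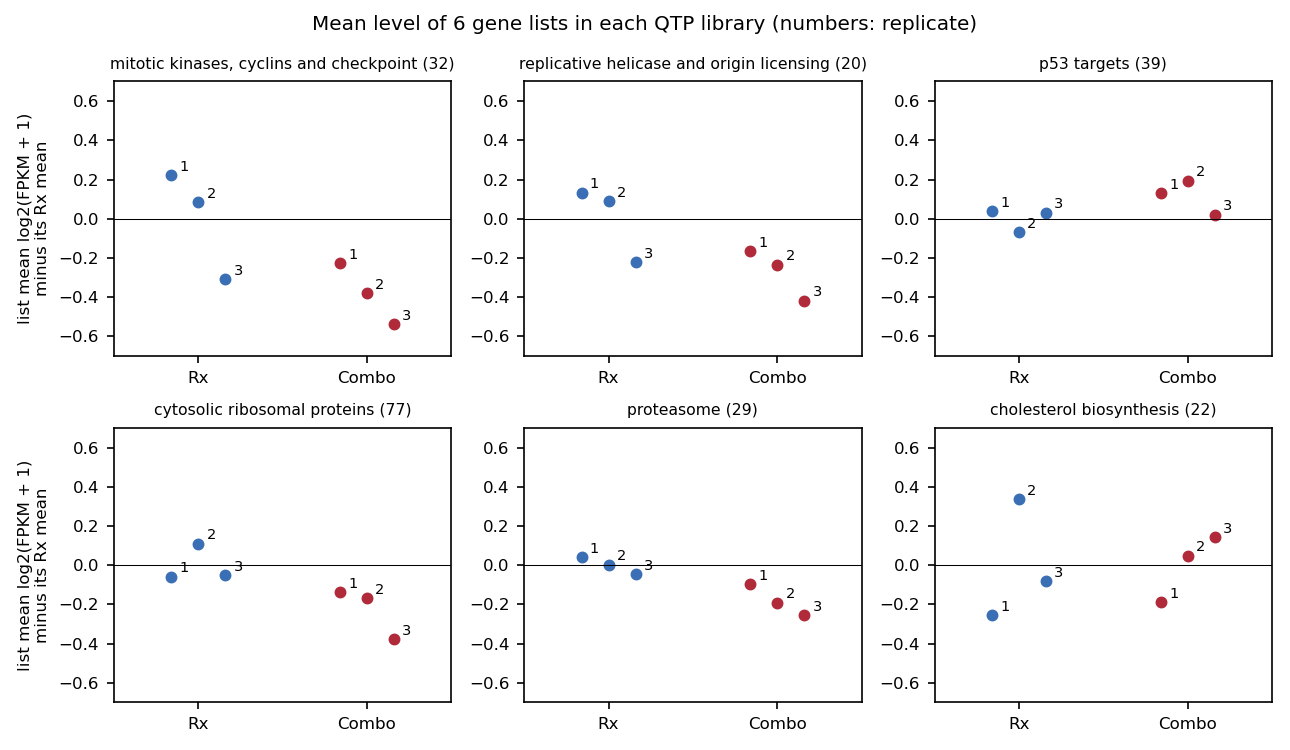
Each point is the mean log2(FPKM + 1) over a list's measured genes in 1 library, minus the mean of the 3 Rx libraries, with the replicate number beside it. In the mitotic and replication panels Rx 3 lies below the other Rx libraries, and in the ribosomal and proteasome panels all 3 Combo libraries lie below all 3 Rx libraries.

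Replication genes had lower means too, with a smaller median than the mitotic genes. Of 20 genes of the replicative helicase and of origin licensing, 19 had a lower mean and 9 an unadjusted p under 0.05, and of 33 genes of the replication fork, E2F factors and nucleotide supply the counts were 32 and 14. GINS1, a helicase subunit, was at 7.56, 6.17 and 5.45 FPKM in Rx and at 4, 4.51 and 3.68 in Combo (-0.54, SE 0.16, interval -0.88 to -0.20). CDT1, which loads the helicase at origins, was at 6.53, 8.54 and 5.14 FPKM in Rx and at 4.5, 4.42 and 4.11 in Combo (-0.51, SE 0.15, interval -0.84 to -0.18). MCM7, a subunit of the helicase ring, was at 38.9, 38.7 and 29.9 FPKM in Rx and at 29.8, 27.4 and 25.4 in Combo (-0.36, interval -0.64 to -0.08). The groups did not overlap in any of the 3 genes, though Rx 3 and Combo 1 were nearly level for MCM7. MCM2 of the same ring was at 8.4, 8.67 and 6.5 FPKM in Rx and at 7.16, 7.01 and 5.9 in Combo, with overlap (-0.20, interval -0.55 to 0.15).

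At the fork, POLD1, the catalytic subunit of DNA polymerase delta, was at 12.9, 13.1 and 12.2 FPKM in Rx and at 10.4, 9.54 and 8.29 in Combo. Its difference was -0.40 (SE 0.10, 95% interval -0.61 to -0.20), with no overlap. ASF1B, a chaperone that hands new histones to replicating DNA, was at 8.19, 8.27 and 4.56 FPKM in Rx and at 4.37, 4.12 and 3.47 in Combo (-0.65, SE 0.21, interval -1.12 to -0.18). FEN1, the flap nuclease of the lagging strand, was at 18.6, 18.3 and 14.8 FPKM in Rx and at 12.8, 13.9 and 10.9 in Combo (-0.43, interval -0.70 to -0.16). The thymidine kinase TK1 differed by -0.50, the clamp loader subunits RFC4 and RFC2 by -0.49 and -0.45, E2F1 by -0.36 and the ribonucleotide reductase subunit RRM1 by -0.33. PCNA, the sliding clamp and also a p53 target, was at 112, 105 and 80.8 FPKM in Rx and at 95.5, 93 and 68.8 in Combo (-0.21), with overlap. E2F7, a repressor of the E2F family, was the member with a higher mean, at 7.55, 7.69 and 6.91 FPKM in Rx and at 7.94, 9.52 and 8.94 in Combo (0.22), without overlap. Rx 3 was the lowest Rx library in 48 of the 53 replication genes and Combo 3 the lowest Combo library in 45. Without Combo 3 the medians of the 2 lists were -0.18 and -0.20, against -0.24 and -0.27 with it, and without Rx 3 they were -0.37 and -0.35. Without Combo 3, 2 and 4 genes were lower at an unadjusted p under 0.05, and without Rx 1 2 and 6. Both medians were below 0 in all 26 settings.

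The promoters of ASF1B, CDT1 and MCM7 are printed to set replication genes beside the mitotic ones. They are the 120 bases before the RefSeq start (GRCh38.p14), chr19:14136590-14136709 (minus strand) for ASF1B, chr16:88803669-88803788 (plus) for CDT1 and chr7:100101398-100101517 (minus) for MCM7. Capitals mark the CHR and CCAAT letters as above and E2F letters, which were TTTGGCGC, TTTCCCGC, TTTGCCGC or TTTCGCGC on either strand.
ASF1B: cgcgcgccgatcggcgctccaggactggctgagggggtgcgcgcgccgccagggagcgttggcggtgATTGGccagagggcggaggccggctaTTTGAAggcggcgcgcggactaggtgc
CDT1: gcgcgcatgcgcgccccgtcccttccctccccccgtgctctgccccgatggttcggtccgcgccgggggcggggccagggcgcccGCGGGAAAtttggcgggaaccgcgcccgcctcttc
MCM7: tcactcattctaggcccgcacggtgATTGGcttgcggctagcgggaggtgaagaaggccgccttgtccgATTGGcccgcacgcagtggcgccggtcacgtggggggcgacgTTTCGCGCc
CDT1 and MCM7 have E2F letters that begin at -35 and -9, and MCM7 has CCAAT letters at -95 and -51. ASF1B has no E2F letters in its window but CHR letters at -27 and CCAAT letters at -53. The E2F letters were found in the 250 bases before the start of 13 of 46 replication genes with an entry (28.3%), of 3 of 59 mitotic genes and of 4.69% of protein-coding genes. The CHR letters were found in 2 of these 46 replication genes (4.35%) and the CCAAT letters in 26 (56.5%).

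DNA repair genes tied to replication had lower means and those of end joining were mixed. Of 27 genes of homologous recombination and the Fanconi pathway, 22 had a lower mean and 7 an unadjusted p under 0.05, with a median of -0.17. FANCG, a Fanconi core complex subunit, was at 6.07, 5.69 and 4.69 FPKM in Rx and at 4.45, 3.92 and 3.11 in Combo (-0.43, interval -0.70 to -0.15). Differences were -0.48 for MND1, which aids strand invasion, -0.44 for the nuclease EXO1, -0.40 for the recombination motor RAD54L and -0.25 for FANCD2. Without Combo 3 the median was -0.07, with 2 such genes, and without Rx 1 it was -0.09, with 3. Of 25 genes of end joining and damage signalling, 16 had a lower mean, 5 were lower and 1 was higher at an unadjusted p under 0.05, against 7.13% and 2.18% of all protein-coding genes, and the median was -0.08. That median was -0.05 without Combo 3 or without Rx 2, with 2 lower genes each time, and -0.01 in TPM, with 1. The kinase CHEK1 was at 4.44, 4.49 and 4.08 FPKM in Rx and at 3.78, 3.49 and 3.57 in Combo (-0.21, interval -0.38 to -0.04), and the histone variant gene H2AFX differed by -0.38 (interval -0.64 to -0.13). DCLRE1C, which encodes the nuclease Artemis, was the higher one, at 3.66, 3.24 and 4.02 FPKM in Rx and at 4.71, 4.4 and 4.49 in Combo (0.26, interval 0.10 to 0.42). The damage kinase ATM was at 6.37, 4.64 and 7.26 FPKM in Rx and at 7.33, 7.34 and 8.26 in Combo (0.30, interval -0.01 to 0.62). The groups did not overlap in CHEK1, DCLRE1C or ATM.

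Clustered histone genes had higher means in Combo. The 10 of 30 that passed the filter were all higher, with a median of 0.20. Of them 2 had an unadjusted p under 0.05, against 2.18% of all protein-coding genes. The groups did not overlap in 1 of them, against 8% of all protein-coding genes. The other 20 did not pass, so the 10 do not speak for the family. HIST1H4H was at 1.5, 1.04 and 1.49 FPKM in Rx and at 2.63, 1.7 and 2.08 in Combo (0.42, SE 0.18, interval 0.02 to 0.82), from 41 to 100 reads. HIST1H2AC was at 9.76, 9.48 and 10.4 FPKM in Rx and at 14.8, 10.3 and 13.3 in Combo (0.33, interval 0.03 to 0.64), with Combo 2 inside the Rx range. HIST1H2BK was at 64.1, 64.7 and 78.2 FPKM in Rx and at 84.3, 68.7 and 86.8 in Combo (0.21). The median was above 0 in all 26 settings, but without Combo 3 it was 0.14 and 0 members had an unadjusted p under 0.05. The 2 such members were also lost without Rx 1, without Rx 2 and without Combo 1. Histone genes are near copies of each other and can share reads. Among 17 genes of the BCL2 family, 8 had a higher and 9 a lower mean. BCL2L12 alone was lower at an unadjusted p under 0.05, against 7.13% of all protein-coding genes. It was at 12.6, 13.4 and 11 FPKM in Rx and at 10.3, 8.34 and 7.32 in Combo (-0.48, interval -0.76 to -0.19). The family's median of -0.02 changed sign in 9 of 26 settings, TPM, quantile normalization, voom and the length correction among them.

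Taken gene by gene over all 10751, the lowest p belonged to HMGB2 (chromosome 4, 173331695 to 173335125, minus strand), a chromatin protein that bends DNA and is abundant in dividing cells. It was at 25.8, 25.7 and 19 FPKM in Rx and at 15.8, 14.4 and 13.9 in Combo. Every Combo library lay below every Rx library. The difference was -0.63 (SE 0.12, 95% interval -0.89 to -0.37, adjusted p = 0.545 in limma), and it was -0.59 without Combo 3 and -0.55 after the length correction. The other lower genes with the smallest p and no overlap were SAPCD2, a regulator of spindle orientation (-0.51), GPRIN1 (-0.35), POC1A, a centriole protein (-0.53), HSPB11, a subunit of the intraflagellar transport machinery (-0.35), SLC37A4, the glucose 6-phosphate transporter (-0.27), SIVA1 (-0.32), DEPDC1B (-0.36), SPC24 and POLD1. SIVA1, an apoptosis regulator that is itself a p53 target, was at 10.2, 10 and 10.1 FPKM in Rx and at 8.31, 7.76 and 7.54 in Combo. SAPCD2 was at 5.03, 5.63 and 4.38 FPKM in Rx and at 3.13, 3.55 and 2.98 in Combo.

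The higher genes with the smallest p and no overlap were led by BTBD19, at 9.1, 8.64 and 8.27 FPKM in Rx and at 11.3, 11.5 and 12.1 in Combo (0.39, SE 0.08, interval 0.21 to 0.56). After it came RASSF8 (0.32), TP53INP1, PPFIBP1, a liprin of cell adhesion (0.32), CDH10, a cadherin (0.48), ZSCAN30 (0.32), the receptor GPR1 (0.34), MR1, which presents vitamin metabolites to T cells (0.24), TMEM65, a mitochondrial membrane protein (0.31), and APH1B, a subunit of gamma-secretase (0.38). RASSF8 was at 2.97, 3.21 and 2.8 FPKM in Rx and at 3.89, 4.13 and 3.89 in Combo. APH1B was at 2.32, 1.69 and 2.12 FPKM in Rx and at 2.95, 2.91 and 2.94 in Combo. CDH10 was at 2.03, 1.47 and 1.88 FPKM in Rx and at 3.22, 3.21 and 2.3 in Combo. The Combo libraries of RASSF8 and APH1B lay within a narrow range, while in CDH10 Combo 3 was the low one.

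The genes with the largest differences among those with an unadjusted p under 0.05 and no overlap included HRNR, ID1 and PAPPA. ID1 (chromosome 20, 31605283 to 31606515, plus strand), an inhibitor of basic helix-loop-helix factors and a target of BMP signalling, was at 15.9, 26.9 and 21.1 FPKM in Rx and at 12.7, 15.2 and 8.44 in Combo. Its difference was -0.77 (SE 0.23, interval -1.27 to -0.27), and -0.55 without Combo 3. PAPPA (chromosome 9, 116153804 to 116402322, plus strand), a secreted protease that frees insulin-like growth factor from its binding proteins, was at 5.93, 5.52 and 5.83 FPKM in Rx and at 9.98, 10.6 and 10.6 in Combo, a difference of 0.75 (SE 0.25, 95% interval 0.21 to 1.29). In vehicle cells PAPPA ranged more widely, at 8, 5.28 and 4.97 FPKM in Con and at 11.3, 8.8 and 4.39 in IR. HRNR, an epidermal protein of the fused S100 family, differed by 0.84 (SE 0.30, interval 0.18 to 1.51), at 1.95, 0.867 and 1.77 FPKM in Rx and at 3.05, 3.12 and 4.27 in Combo. SLC5A3, the myo-inositol transporter, was at 16.8, 12.6 and 16.5 FPKM in Rx and at 23.2, 20.9 and 26 in Combo (0.58). The taste receptor gene TAS2R4 differed by 0.56 and C4BPB, a chain of a complement inhibitor, by -0.64. Without Combo 3, HRNR, SLC5A3, TAS2R4 and C4BPB no longer had an unadjusted p under 0.05.

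**Figure D3:**
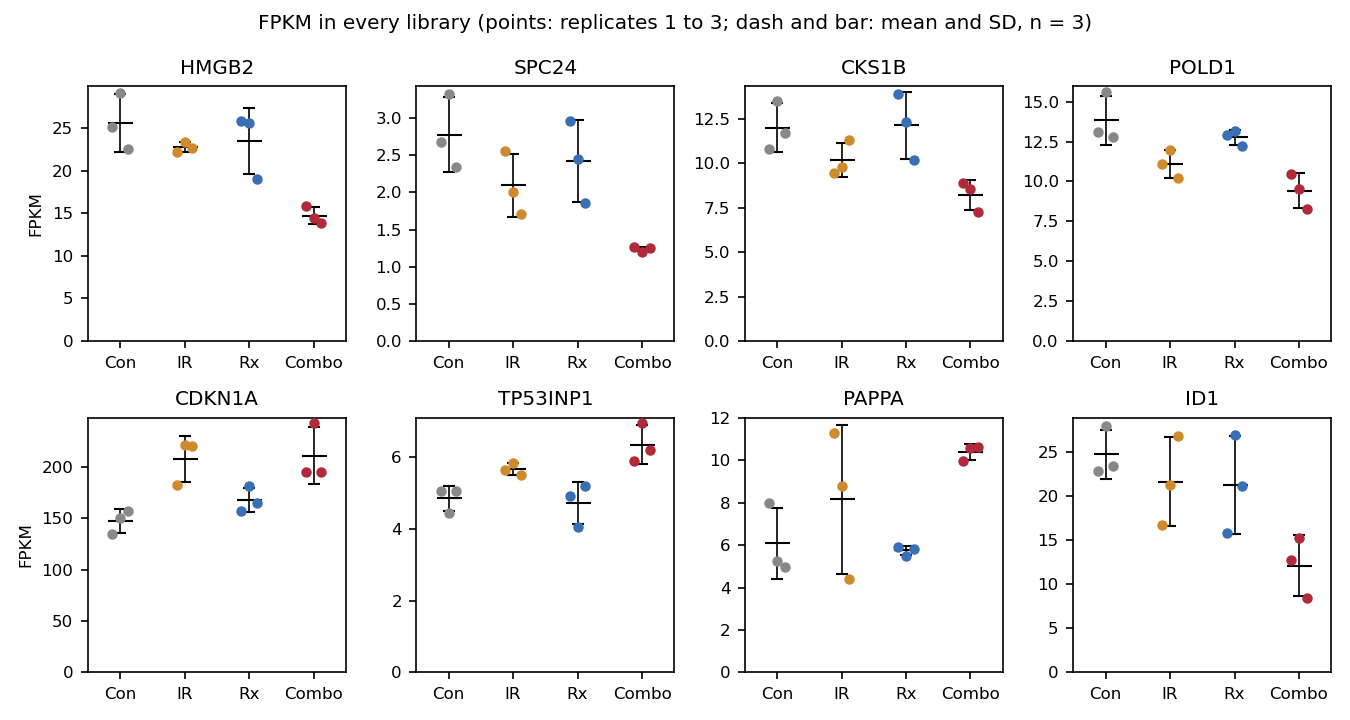
FPKM of 8 genes in each of the 12 libraries, with points for replicates 1 to 3 and a dash and bar for the mean and SD (n = 3). In the QTP cells the Combo points lie below the Rx points for HMGB2, SPC24, CKS1B, POLD1 and ID1 and above them for CDKN1A, TP53INP1 and PAPPA.

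Genes for protein synthesis, respiration and protein breakdown also had lower means in Combo, with small differences that ran through whole lists. Of 77 cytosolic ribosomal protein genes, 76 had a lower mean and the groups did not overlap in 53, against 14.3% of all protein-coding genes, but 3 had an unadjusted p under 0.05. That count was 36 without IR 3, 47 without IR 1, 41 in the 6 libraries alone and 13 in TPM, and 0 without Combo 3 or without Rx 2. The list's median was -0.24. The median depended on the scaling, at -0.15 in TPM and -0.09 after quantile normalization. RPS7 was at 122, 126 and 124 FPKM in Rx and at 109, 103 and 85.9 in Combo (-0.32, interval -0.62 to -0.03). RPL6 was at 293, 318 and 315 FPKM in Rx and at 265, 253 and 211 in Combo (-0.35, interval -0.69 to -0.01), and RPL22 at 49.9, 56.1 and 54 against 42.6, 45.1 and 41.7 (-0.30, interval -0.58 to -0.02). In all 3 genes every Combo library lay below every Rx library, with Combo 3 lowest. RPS10 was the gene with a higher mean (0.14). Ribosomal protein genes share sequence with many copies in the genome, and how their reads were shared out is not known.

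Of 53 nuclear genes for respiratory chain subunits, 52 had a lower mean, against 56.5% of all protein-coding genes, with a median of -0.21. The groups did not overlap in 26, against 14.3%, and 13 had an unadjusted p under 0.05, against 7.13%. ATP5PO, a stalk subunit of ATP synthase, was at 6.59, 6.22 and 5.42 FPKM in Rx and at 4.79, 4.15 and 4.34 in Combo (-0.38, SE 0.12, interval -0.65 to -0.11). NDUFB6, a subunit of complex I, was at 24.8, 21.2 and 21 FPKM in Rx and at 19.3, 17.8 and 16.2 in Combo (-0.31, interval -0.54 to -0.09). NDUFV2, also of complex I, was the one with a higher mean (0.22). The 13 genes encoded in mitochondria all had a lower mean, with a median of -0.16 and 0 at an unadjusted p under 0.05. In TPM 9 of the 13 were lower, with a median of -0.07, and after quantile normalization 7, with a median of -0.03. Of 29 proteasome genes, 28 had a lower mean, with a median of -0.20. Against the same shares of all genes, 21 did not overlap and 11 had an unadjusted p under 0.05. PSMC3, an ATPase of the regulatory particle, was at 33.9, 32.3 and 32.5 FPKM in Rx and at 27.5, 25.6 and 25.2 in Combo (-0.32, SE 0.08, interval -0.50 to -0.15), while PSMD2 of the same particle differed by 0.02. Without Combo 3 the medians of the ribosomal, respiratory and proteasome lists were -0.16, -0.16 and -0.15, with 0, 2 and 3 genes lower at an unadjusted p under 0.05. The 13 respiratory and 11 proteasome genes became 24 and 17 without IR 3, 28 and 17 in the 6 libraries alone, 11 and 4 in TPM, and 2 and 3 without Rx 1. Over all protein-coding genes the 767 became 1054 without IR 3, 1044 in the 6 libraries alone and 497 without Rx 1. All 4 of these medians were below 0 in all 26 settings.

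Gene length moved with the difference between Combo and Rx. The median difference was -0.16 over 99 genes of up to 1 kb, -0.14 from 1 to 2 kb, -0.09 from 2 to 4 kb, -0.01 from 4 to 8 kb and 0.07 over 2362 genes above 8 kb. Across protein-coding genes, which are not independent replicates, the difference correlated with log2 gene length at r = 0.41 (Spearman's rho 0.44), and at r = 0.28 to 0.47 with each library left out. Genes lower at an unadjusted p under 0.05 had a median length of 3475 bases, those higher by that mark 7622, and all genes 5140. In vehicle cells r was -0.29 (rho -0.31), with medians of 0.14 in the shortest class and -0.04 in the longest, and this rested on 1 library. Without IR 3, r was -0.02 (rho -0.02) and the medians were 0.04 and 0.00, and with each of the other libraries left out r was -0.19 to -0.42. Lengths are those of the deposited table. The part of length in the list differences was not tested, and the values after a correction for it stand beside them here. With the correction 264 genes (2.46%) were higher and 536 (4.99%) lower at an unadjusted p under 0.05. The corrected medians were -0.35 for mitotic kinases, -0.34 for kinesins, -0.29 for kinetochore genes, -0.19 and -0.21 for the replication lists, 0.14 for p53 targets, 0.28 for histones, -0.18 for ribosomal proteins, -0.15 for the respiratory chain and -0.15 for the proteasome.

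**Figure D4:**
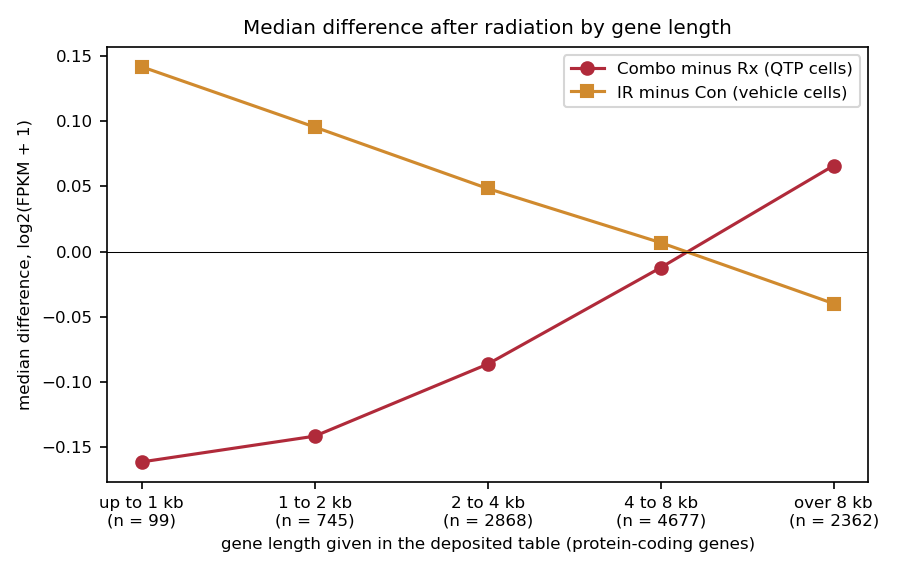
Median difference in mean log2(FPKM + 1) over the protein-coding genes of 5 length classes, Combo minus Rx in circles and IR minus Con in squares. The first climbs from -0.16 in the shortest class to 0.07 in the longest, and the second declines from 0.14 to -0.04 but, without IR 3, from 0.04 to 0.00.

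The same radiation dose in vehicle cells gave similar medians for some lists and opposite ones for others. IR against Con also had 0 adjusted calls in limma (0%), with 405 genes (3.77%) higher and 293 (2.73%) lower at an unadjusted p under 0.05. The median of the p53 targets was 0.17 there, with 36 of 39 higher, and CDKN1A was at 135, 151 and 157 FPKM in Con and at 182, 221 and 220 in IR, a difference of 0.49. The medians of the 3 mitotic lists were -0.27, -0.36 and -0.26, with 20 of 71 genes lower at an unadjusted p under 0.05, of which 15 were among the 45 in QTP cells. For MKI67 the difference was -0.73 in vehicle cells and -0.38 in QTP cells, and for FOXM1 -0.61 and -0.49. HMGB2 differed by -0.16 in vehicle cells and PMF1 by -0.09. Of the 767 genes lower in QTP cells at an unadjusted p under 0.05, 425 (55.4%) also had a lower mean in IR than in Con, and of the 234 higher ones 152 (65.0%) had a higher mean. Over all genes the mean was lower in IR in 45.8% and higher in 54.2%. Genes with an unadjusted p under 0.05 in both contrasts were 20 higher in both, 75 lower in both, and 1 and 12 in opposite directions. Across all protein-coding genes the 2 contrasts correlated at r = 0.11 (rho 0.01), and at r = 0.26 (rho 0.17) after the length correction.

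The interaction, which tests whether the radiation difference was the same in QTP and vehicle cells, gave 0 adjusted calls in limma (0%, lowest adjusted p 0.609), with 143 genes (1.33%) higher and 590 (5.49%) lower at an unadjusted p under 0.05. Voom also gave 0 adjusted calls, with 672 higher and 213 lower. The median of the interaction over all genes was -0.04 in FPKM and 0.15 in TPM, and the median of IR minus Con was 0.01 in FPKM and -0.09 in TPM. The ribosomal protein list had medians of -0.24 in QTP cells and 0.22 in vehicle cells, where all 77 genes had a higher mean. Its interaction median was -0.46, with 49 genes lower at an unadjusted p under 0.05, -0.26 and 23 genes in TPM, and -0.14 and 3 genes after quantile normalization. Without IR 3 the vehicle median was 0.08 and the interaction median -0.31, with 11 genes, and without IR 3 and Combo 3 the interaction median was -0.23, with 1 gene. The medians of respiratory chain genes were -0.21 in QTP and 0.10 in vehicle cells, and the vehicle value was -0.01 in TPM and -0.02 without IR 3. The proteasome median was 0.02 in vehicle cells and below 0 in TPM, quantile normalization, voom, the length correction and without IR 3. The interaction median was -0.11 for the mitotic kinase list, 0.07 in TPM, and -0.08 for the p53 list, 0.11 in TPM. Of the 71 mitotic and of the 53 replication genes, 1 each had an unadjusted interaction p under 0.05.

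**Figure D5:**
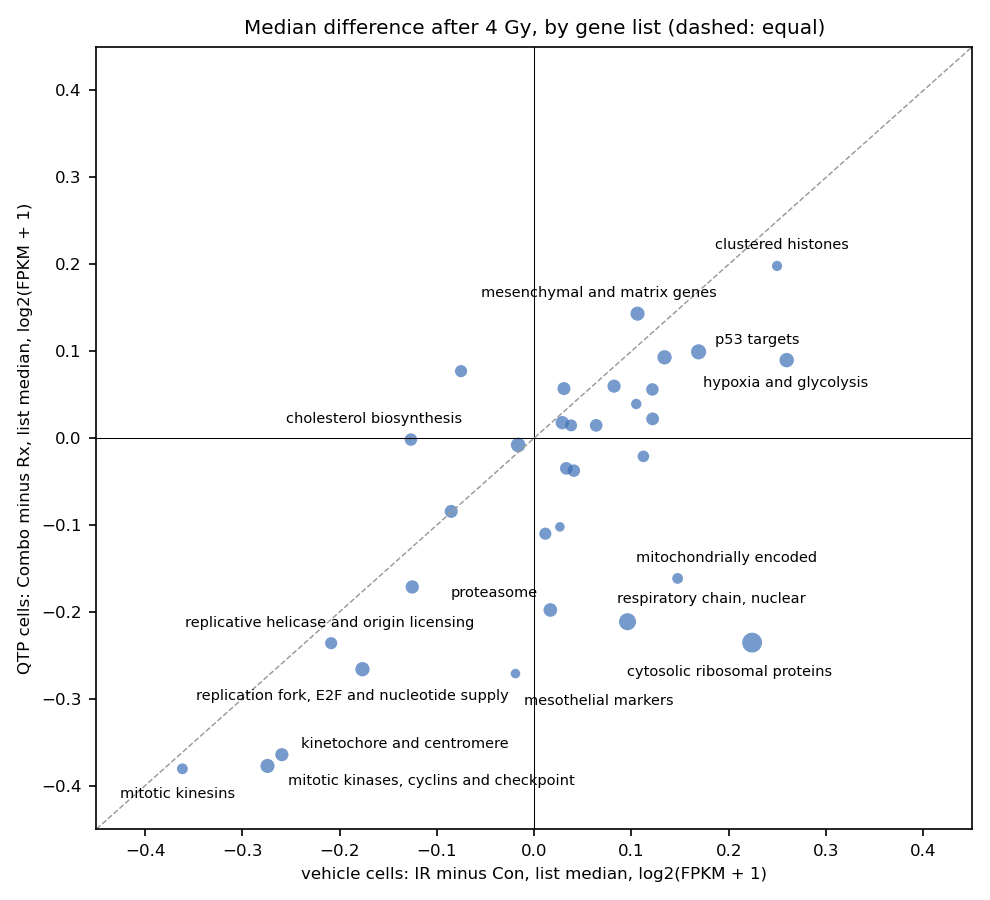
Each circle is 1 gene list, placed by its median difference in vehicle cells (IR minus Con, x axis) and in QTP cells (Combo minus Rx, y axis), both in log2(FPKM + 1), with larger circles for longer lists and a dashed line of equal values. The mitotic lists lie near the dashed line below 0, and the ribosomal list lies at 0.22 and -0.24.

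Among genes with the smallest interaction p and no overlap between Rx and Combo, MRPS31, a subunit of the mitochondrial ribosome, was at 8.5, 8.35 and 9.42 FPKM in Rx and at 6.96, 7.71 and 7.19 in Combo. In vehicle cells it was at 8.41, 7.32 and 8.02 FPKM in Con and at 8.98, 9.02 and 9.1 in IR. It was thus lower after radiation in every QTP library and higher in every vehicle library, and the interaction was -0.41 (adjusted p = 0.609 in limma). C18orf21, C11orf1 and PSENEN, a subunit of gamma-secretase, had interactions of -0.54, -0.64 and -0.60.

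Genes of sterol and lipid metabolism did not separate Combo from Rx. Of 22 cholesterol synthesis genes, 11 had a higher and 11 a lower mean, 0 had an unadjusted p under 0.05, and the median was -0.00, with its sign changing in 9 of 26 settings. HMGCS1, which makes the precursor of mevalonate, was at 25.2, 57.2 and 33.8 FPKM in Rx and at 31.8, 49.1 and 54.5 in Combo (0.26). INSIG1, the sterol sensor that retains SREBP, was at 39.8, 122 and 50.7 FPKM in Rx and at 45.7, 84.2 and 84.3 in Combo (0.13, SE 0.39). Rx 2 was the highest Rx library in both genes, and the spread among the Rx libraries was wider than the difference between groups. Of 19 SREBP control and transport genes 11 had a higher mean, with 0 at an unadjusted p under 0.05. Of 20 genes of fatty acid synthesis 13 had a higher mean. By that mark 1 of them was higher and 1 lower, against 2.18% and 7.13% of all protein-coding genes.

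Lysosomal genes had slightly higher means. Of 33 lysosomal hydrolases and membrane proteins, 26 had a higher mean, 7 did not overlap, against 8% of all protein-coding genes, and 2 had an unadjusted p under 0.05, against 2.18%. That count was 0 without Combo 1, Combo 3, Rx 3, IR 1, IR 2 or IR 3. It was 4 without Con 1 and 3 in the 6 libraries alone. The list had a median of 0.09 that was above 0 in all 26 settings. In vehicle cells 29 of 33 had a higher mean after radiation, with a median of 0.13. LAMP2, a lysosomal membrane glycoprotein, was at 19, 20.9 and 17.4 FPKM in Rx and at 22.2, 21.6 and 21.7 in Combo (0.19, interval 0.00 to 0.37). The acid ceramidase ASAH1 differed by 0.14 (interval 0.00 to 0.27). The protease CTSB and the saposin precursor PSAP differed by 0.28 and 0.25 without overlap. Of 23 autophagy genes 14 had a higher mean, and the adaptor SQSTM1 was at 68.1, 79.8 and 71.5 FPKM in Rx and at 79.2, 74.1 and 91.1 in Combo (0.15), with overlap.

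The stress programmes were mixed. Of 26 genes of the unfolded protein response 17 had a higher mean, with 3 higher and 1 lower at an unadjusted p under 0.05, against 2.18% and 7.13% of all protein-coding genes, and 0 of either without Combo 3 or without Rx 1. The higher ones were ERN1, EIF2AK3 and ATF6, each a stress sensor in the membrane of the endoplasmic reticulum. ERN1 was at 2.15, 2.68 and 2.69 FPKM in Rx and at 3.24, 2.99 and 4.05 in Combo (0.33, interval 0.04 to 0.62), EIF2AK3 differed by 0.15 (interval 0.02 to 0.29) and ATF6 by 0.13 (interval 0.00 to 0.26), all without overlap. The lower one was the chaperone CRELD2 (-0.22), and XBP1, the transcription factor spliced by ERN1, was at 17.5, 20 and 16.4 FPKM in Rx and at 15.8, 18.1 and 18.8 in Combo (-0.03, above 0 in TPM, quantile normalization and voom). Of 20 cytosolic heat shock genes 18 had a lower mean, with a median of -0.11. In TPM 13 were lower, with a median of -0.03, and after quantile normalization 12, with a median of -0.02. Of 27 ATF4 targets 17 had a higher mean, with 1 at an unadjusted p under 0.05 and a median of 0.02 that was below 0 without Combo 3. Of 22 NRF2 targets 10 had a higher and 12 a lower mean, and thioredoxin reductase, TXNRD1, was at 105, 105 and 98.5 FPKM in Rx and at 127, 115 and 144 in Combo (0.32, interval 0.09 to 0.54), without overlap.

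Secreted and inflammatory genes varied with single libraries. Of 22 NF-kB targets and secreted factors 14 had a higher mean, 0 had an unadjusted p under 0.05, and the median of 0.06 turned negative without Rx 3 and without Combo 3. The growth factor CSF1 was at 12.2, 11.1 and 8.37 FPKM in Rx and at 15.6, 12.3 and 15.2 in Combo (0.42), without overlap, and the chemokine CCL2 differed by -0.34. Of 34 hypoxia and glycolysis genes 24 had a higher mean and 0 an unadjusted p under 0.05. The median of 0.09 turned negative without Rx 3, in which ADM, the vasodilator adrenomedullin, was at 0.788 FPKM against 4.25 and 4.66 in the other Rx libraries and 4.94, 4.29 and 6.29 in Combo. Of 35 interferon-stimulated genes 17 had a higher and 18 a lower mean, with a median of -0.01. IFI35 (-0.24) was the 1 lower at an unadjusted p under 0.05, against 7.13% of all protein-coding genes. Of 23 genes of MHC class I presentation 12 had a lower mean, and the 3 lower at an unadjusted p under 0.05 were the proteasome genes PSMB8, PSMB9 and PSME1, against 7.13% of all protein-coding genes, with 0 left without Combo 3 or without Rx 1. PSMB8, an immunoproteasome subunit, was at 38.7, 35.6 and 37.7 FPKM in Rx and at 33.1, 29.5 and 28.9 in Combo (-0.28, interval -0.50 to -0.06). Of 24 immediate early genes 13 had a higher mean. JUN (-0.19) was the 1 lower at an unadjusted p under 0.05, against 7.13% of all protein-coding genes.

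Markers of the tissue of origin differed in both directions. Of the 7 mesothelial markers that passed, 3 had a higher and 4 a lower mean, with a median of -0.27 that was 0.002 with library quality weights. At an unadjusted p under 0.05, 3 were lower, against 7.13% of all protein-coding genes. Without Combo 3 the median was -0.15 and without Rx 3 -0.16, with 1 lower marker each time, without Combo 1 -0.09, with 1, and without Rx 2 -0.05, with 0. CALB2, which encodes the calcium-binding protein calretinin, was at 19.2, 27.3 and 19.6 FPKM in Rx and at 14.5, 15.3 and 13.6 in Combo (-0.56, SE 0.19, interval -0.97 to -0.15), without overlap. KRT18 was at 474, 634 and 587 FPKM in Rx and at 411, 521 and 339 in Combo (-0.43, interval -0.82 to -0.03), and its partner KRT8 at 417, 526 and 504 against 369, 443 and 305 (-0.38, interval -0.73 to -0.03). Both keratins had overlap through Combo 2, and they lie next to each other and have copies, so they can share reads. MSLN, the surface antigen mesothelin, was at 24.4, 53.7 and 46.4 FPKM in Rx and at 25.2, 49.5 and 27.3 in Combo (-0.27). HEG1 differed by 0.27, without overlap. The summed level of the 16 markers was 961 to 1265 FPKM in Rx and 713 to 1056 in Combo.

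Matrix genes had a median of 0.14, with 24 of 32 higher in mean and 0 at an unadjusted p under 0.05. Among them COL5A1, a fibrillar collagen chain, differed by 0.35 without overlap, and fibronectin, FN1, by 0.54 (SE 0.42) with overlap. Of 25 YAP and TAZ targets and pathway genes 16 had a higher mean. At an unadjusted p under 0.05, 1 was higher and 1 lower, against 2.18% and 7.13% of all protein-coding genes. TEAD1, the DNA-binding partner of YAP, was at 11.8, 9.62 and 13.1 FPKM in Rx and at 13.8, 14.7 and 14.1 in Combo (0.29, interval 0.02 to 0.57). Of 23 stem and initiating cell genes 11 passed the filter, 7 of them with a higher mean, and 0 had an unadjusted p under 0.05, with a median of 0.04. These 3 medians were above 0 in all 26 settings.

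The receptors at which the series title aims were nearly silent except for 1. Of 26 genes for dopamine and other antipsychotic targets 7 passed the filter, 15 were under 0.1 FPKM on average and 8 had 0 reads in all 6 libraries. DRD1, DRD2, DRD3 and DRD5 had at most 2 reads in any of the 6. DRD4 was at 4.45, 5.39 and 3.22 FPKM in Rx and at 3.35, 4.55 and 3.61 in Combo, from 71 to 145 reads, and the groups overlapped (-0.13, SE 0.18). HTR1D, a serotonin receptor, was at 14.5, 20.4 and 14.6 FPKM in Rx and at 14.3, 17.4 and 14 in Combo (-0.10), with overlap. Of the 7, 5 had a lower mean and 0 an unadjusted p under 0.05.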

How the data were processed

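RNA from 12 libraries of MSTO-211H was extracted with Trizol and RNeasy columns, made into NEBNext Ultra libraries and sequenced on a NovaSeq6000, per the labels' protocols. The authors deposited FPKM per gene and the gene length in bases in 1 table, with hg38 as genome, per the submitters' processing notes. How reads were aligned and counted, and whether strand was used, is not given in the sources used here. Reads of a gene and of a gene overlapping it or antisense to it may therefore be mixed. Whole reads could be recovered from FPKM and length for 100% of values above 0, within 0.01 of a read. Gene coordinates, which matched GENCODE release 29, count from 1. Of the symbols, 175 have more than 1 identifier, and 0 value columns were left without a sample.

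Expression was log2(FPKM + 1), which understates the fold changes of low genes, for the 13038 genes that average 1 FPKM or more. Limma 3.58.1 (R 4.3.3) fitted the 4 group means to all 12 libraries, using its variance trend and two-sided tests, and p-values were adjusted by Benjamini-Hochberg over all these genes (threshold 0.05). The procedure was tested on simulated reads that had the same spread in every gene. It recovered 67.2% of genes changed 1.5-fold and 98.5% of those changed 2-fold, with 5 false calls. The simulation had no trend with gene length and no shift shared by the genes of a list, so these rates do not carry over to the real libraries. Gene lists were described by counts and medians, and not tested. The members, the lists and the rule for naming genes were chosen with earlier results of these data known. The rule takes, among genes whose Rx and Combo libraries do not overlap, the 10 with the smallest p and the 4 with the largest difference (unadjusted p under 0.05) in each direction, up to 3 members of each list by p on the side of its median, the 4 with the smallest interaction p, and CDKN1A, MDM2, GDF15, MKI67, CCNB1, MCM2, HMGCS1, INSIG1, SQSTM1, XBP1 and DRD4. Some genes that the rule takes are not reported here. Other list members were named with their values seen. Replicate numbers were not taken as pairs, since the titles give no more than a number. The same-numbered Rx and Combo libraries deviated together at correlations of 0.47, 0.25 and 0.05. A batch shared by replicate number was not tested. Alternatives were a pseudocount of 0.1, no filter, a filter at 5 FPKM, TPM, median of ratios and quantile scaling, the 6 libraries alone, no variance trend, library quality weights, a replicate block, protein-coding genes alone, voom on recovered reads, each library left out, IR 3 and Combo 3 left out, and a length correction added after the data were seen. Several of these alternatives cannot change a Combo minus Rx difference and bear only on its p-value. They are each Con or IR library left out, the 6 libraries alone and no variance trend. The replicate block, no filter and protein-coding genes alone also belong here. For that difference, leaving out IR 3 and Combo 3 repeats the value without Combo 3. Promoters are from RefSeq (GRCh38.p14), which had an entry for 8631 of the 10751 genes.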

Additional observations from a re-analysis of the deposited data

Results flagged for a closer look

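In 3 of the genes named, radiation went with opposite directions in QTP and vehicle cells in all libraries of both arms. ASNS, the asparagine synthetase of the ATF4 programme, was at 2.07, 1.53 and 2.03 FPKM in Rx and at 2.23, 2.16 and 3.08 in Combo, but at 1.96, 1.57 and 1.51 in Con and at 1.44, 1.36 and 1.01 in IR. Its interaction was 0.51 (adjusted p = 0.609 in limma). MRPS31 had an interaction of -0.41 and C18orf21 one of -0.54, both lower in Combo than in Rx and higher in IR than in Con. C18orf21 was at 5.12, 5.65 and 4.75 FPKM in Rx, 4.24, 4.16 and 4.19 in Combo, 4.15, 5.13 and 4.65 in Con and 5.16, 6.5 and 6.14 in IR. None of these interactions passed the adjusted test. MRPS31 and C18orf21 were named for a small interaction p without overlap of Rx and Combo, so for them the pattern follows in part from the choice. Of all 10751 protein-coding genes, 45 (0.419%) had groups that did not overlap in either arm and opposite directions. Single outlying libraries were not tested for in groups of 3.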

How the results depend on the processing

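In every setting run, 0 protein-coding genes passed the adjusted test of Combo against Rx or of the interaction. In IR against Con 498 did with library quality weights, which gave IR 2 a weight of 8.20, and 0 otherwise. At an unadjusted p under 0.05, the 234 higher genes became 391 with no filter, 125 at a mean of at least 5 FPKM, 417 in the 6 libraries alone, 524 with quality weights, 550 with voom and 356 with the replicate block, which gave 830 lower. With each library left out they ranged from 92 to 397 (without Combo 3 92, Combo 2 149, IR 3 363 and Rx 3 397). The 767 lower genes became 308 in TPM, 1250 with quality weights and 436 without IR 3 and Combo 3, and ranged from 246 to 1054 with each library left out (without Combo 3 246, Rx 2 445, Rx 1 497). The cause of these moves was not tested, apart from the number of genes tested under the filters. Of the named genes' values under alternatives, 3428 kept their direction and side of the threshold, and 14 changed sign without being called. The 3428 include values from settings that cannot change a Combo minus Rx difference. As no gene was called in any setting, none could change its side of the threshold. BAK1 became 0.00275 with the length correction. With each library left out, DRD4 ranged from -0.295 to 0.00404 (without Rx 2), GDF15 from -0.00703 (without Combo 2) to 0.362, INSIG1 from -0.195 (without Rx 1) to 0.605 and XBP1 from -0.0847 to 0.0499 (without Rx 2). INSIG1 became -0.0169 without IR 3 and Combo 3. XBP1 became 0.0596 in TPM, 0.0224 after quantile normalization, 0.00943 with voom and 0.0491 with the length correction. Rx 1 and Rx 2 deviated most like the Combo library of their own number, and Rx 3 most like Combo 2. Whether the numbers mark pairs is not given, so the replicate block is not read as a paired analysis. At 14.9 to 19.1 reads per kb and FPKM, genes near 1 FPKM rest on few reads.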
